A study of Homo sapiens with 18 samples.

Results

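The 10 genes described here belong to the Notch signalling pathway: the feedback inhibitor NRARP, the target repressors HES1, HES4 and HEY1, the receptors NOTCH1, NOTCH2 and NOTCH3, the ligands JAG1 and JAG2, and the DNA-binding effector RBPJ. They were matched by symbol among 62649 gene IDs, and each symbol matched 1 ID. The set was selected on earlier results of the same libraries: NRARP was chosen by its higher level in smoke-exposed A549 cells and by its difference between the lines. Its values in those comparisons are therefore a description without a test, and counts of genes that passed a test are over the other 9.

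Messenger RNA was sequenced from BEAS-2B, an immortalised human bronchial epithelial line, and A549, an alveolar epithelial line from a lung carcinoma. Both lines are wild type per the labels, and each sat at the air-liquid interface, on a porous insert, for 4 h of exposure to wood smoke, complete or filtered, or to clean air. The series title ties the question to carbonyl compounds of the gas phase, the part of an aerosol that passes a particle filter. Each of the 6 groups had 3 libraries, 18 in all: BEAS-2B in complete smoke, filtered smoke and clean air, and A549 in the same 3 atmospheres. Per the labels, BEAS-2B was maintained in KGM and A549 in RPMI with serum, and sample names differ in form between the lines. Line, culture medium and any library batch that goes with the line therefore cannot be told apart. Each cell type was represented by a single established line, and the labels do not say whether the 3 libraries of a group came from separate cultures, so a p-value here reflects only how far these libraries scatter, which may be technical.

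Notch receptors are cut after a ligand on a neighbouring cell binds them, and the freed intracellular domain enters the nucleus and joins RBPJ and a Mastermind coactivator on DNA. Among the first genes switched on are the HES and HEY repressors and NRARP, a small ankyrin-repeat protein that binds the intracellular domain and promotes its loss. In the airway the pathway is best known for setting the choice between secretory and ciliated fates of basal cells.

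Depth was 28.5 M to 55.0 M gene counts per library in BEAS-2B and 14.4 M to 21.4 M in A549. The BEAS-2B library complete 3 stood apart. Of its reads 31.7% mapped to several places, and 12.6% of its uniquely mapped reads overlapped no annotated exon on the counted strand. The other libraries of that line had at most 19.2% and 6.41%. BEAS-2B clean air 1 was set apart by its values in several of the genes below. Its shares were 9.08% and 3.51%, against 7.69% and 5.37% in clean air 2 and 8.73% and 6.41% in clean air 3. Its TMM scaling factor was 1.14, against 1.48 and 1.52 in those libraries. Values without both libraries follow the members' own. For the genes that singled out clean air 1, p-values without it are a description and not a test. The share of uniquely mapped reads outside annotated exons, which can include reads in introns, also moved with exposure. It was 3.27% to 6.41% in A549 complete smoke and 2.56% to 5.09% in A549 filtered smoke, against 6.49% to 7.56% in A549 clean air. In BEAS-2B it was 1.40%, 1.22% and 12.6% in complete smoke and 1.09% to 2.90% in filtered smoke, against 3.51% to 6.41% in clean air, and the part of this share in the results was not tested. The 5 epithelial markers were at 1 CPM (counts per 1e6 gene counts) or more in all groups. The 6 airway basal markers summed to 669 to 1570 CPM in BEAS-2B and 15.2 to 29.3 CPM in A549. KRT17 held most of the BEAS-2B sum, at 507 to 1450 CPM, and KRT5, KRT14 and NGFR also had a higher median there. TP63 and KRT15 went the other way, with medians of 2.42 and 2.29 CPM in BEAS-2B and 9.21 and 9.02 CPM in A549. Of the alveolar type 2 markers, SFTPA1 and SFTPA2 had no count in any library and SFTPB and SFTPC reached at most 0.0693 and 0.158 CPM in A549, so the surfactant genes that define the alveolar type 2 cell were at or near 0 in the line labelled alveolar. ABCA3, the lamellar body transporter, was at 40.8 to 55.3 CPM there. The 5 immune markers summed to at most 0.346 CPM in any library. Some marker sums moved with exposure. The 4 alveolar type 1 markers, none of them at 0, summed to 444 to 607 CPM in BEAS-2B complete smoke and 402 to 552 CPM in filtered smoke, against 1100 to 1320 CPM in clean air. This sum was almost all CAV1, at 388 to 1320 CPM in that line, so its fall is that of CAV1 and not of the panel. AGER, PDPN and HOPX reached at most 3.03, 3.25 and 11.8 CPM there. The 6 secretory markers summed to at most 0.127 CPM in exposed BEAS-2B, against 1.71 to 3.33 CPM in clean air, and SCGB3A2 had no count in that line. In A549 the basal sum was 15.2 to 23.0 CPM in complete smoke and 19.7 to 20.5 CPM in filtered smoke, against 27.4 to 29.3 CPM in clean air. The part of these markers in the members' changes was not tested.

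The promoters of NRARP, HES1 and HES4 are shown because the RBPJ complex recognises a short DNA word at Notch targets. The letters searched were TGGGAA, the RBPJ core, on both strands. It stands in capitals in the 120 bases just upstream of each RefSeq start (GRCh38.p14), written along the gene's strand: NRARP at chr9:137302272-137302391 (minus strand), HES1 at chr3:194136028-194136147 (plus strand) and HES4 at chr1:1000098-1000217 (minus strand).
NRARP: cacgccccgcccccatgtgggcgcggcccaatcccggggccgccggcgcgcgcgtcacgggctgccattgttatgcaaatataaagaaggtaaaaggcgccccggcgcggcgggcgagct
HES1: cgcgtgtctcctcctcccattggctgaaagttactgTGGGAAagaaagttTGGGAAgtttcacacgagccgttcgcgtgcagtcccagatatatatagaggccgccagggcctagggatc
HES4: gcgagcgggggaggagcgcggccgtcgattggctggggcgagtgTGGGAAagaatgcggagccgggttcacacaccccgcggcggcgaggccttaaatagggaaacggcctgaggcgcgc

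The HES1 stretch held 2 matches, starting 84 and 70 bases before the start, and the HES4 stretch held 1, at 76 bases. The first HES1 match and the HES4 match extend to the longer word GTGGGAA. NRARP held no match in its full window of 300 bases, which says only that these letters are not there. Across the 35116 RefSeq promoters of that length, 24.0% held TGGGAA, 3.8% held it at least 2 times, and 6.25% held GTGGGAA, each of which also contains the shorter word. Of the 9 members with a window in the table, RBPJ itself also held TGGGAA, in 1 of its windows, at 72 and, on the opposite strand, 115 bases before the start. These RBPJ matches also extend to GTGGGAA, so the longer word is not confined to members that rose. The promoter of HEY1 was not used here. A match is a description of the sequence, not a binding site.

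NRARP (ENSG00000198435, chr9:137300482-137302251 on GRCh38, minus strand, a single exon of 1770 bases) is the gene the set was built around. In BEAS-2B it had 1.94, 4.32 and 2.82 CPM in complete smoke and 2.12, 3.31 and 3.92 CPM in filtered smoke, against 2.29, 2.64 and 2.45 CPM in clean air. In A549 it had 15.8, 17.3 and 23.5 CPM in complete smoke and 16.0, 30.9 and 35.6 CPM in filtered smoke, against 1.20, 1.14 and 1.51 CPM in clean air. Exposed and clean air libraries overlapped in BEAS-2B, while every exposed A549 library lay above every A549 clean air library. Ordered by level, the group means were 27.5 ± 10.2 CPM in A549 filtered smoke, 18.8 ± 4.07 in A549 complete smoke, 3.12 ± 0.915 in BEAS-2B filtered smoke, 3.03 ± 1.20 in BEAS-2B complete smoke, 2.46 ± 0.178 in BEAS-2B clean air, and 1.28 ± 0.197 in A549 clean air (SD, n = 3 each). In that order the 2 smoke groups of A549 overlapped and so did the 3 groups of BEAS-2B, whereas A549 clean air lay below every BEAS-2B library.

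The log2 fold changes of NRARP against clean air, after TMM scaling, were 0.97 for complete and 0.99 for filtered smoke in BEAS-2B and 4.00 and 4.57 in A549. The BEAS-2B response minus the A549 response was -3.03 for complete and -3.57 for filtered smoke. Scaling by library size alone gave 0.30 and 0.34 in BEAS-2B, and offsets for GC content and transcript length gave 0.19 and 0.04, against 3.34 and 3.70 in A549 with the same offsets. The fold change in A549 was thus 3.34 or more under each of these scalings, and that in BEAS-2B moved towards 0. Complete against filtered smoke did not choose the gene and was tested: -0.02 ± 0.29 in BEAS-2B (adjusted p = 1) and -0.57 ± 0.25 in A549 (adjusted p = 0.998; unadjusted p = 0.0469 by edgeR's quasi-likelihood test), with intervals of -0.66 to 0.62 and -1.14 to -0.01. The offsets for GC content and length gave -0.36 ± 0.40 for this A549 difference.

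**Figure D1:**
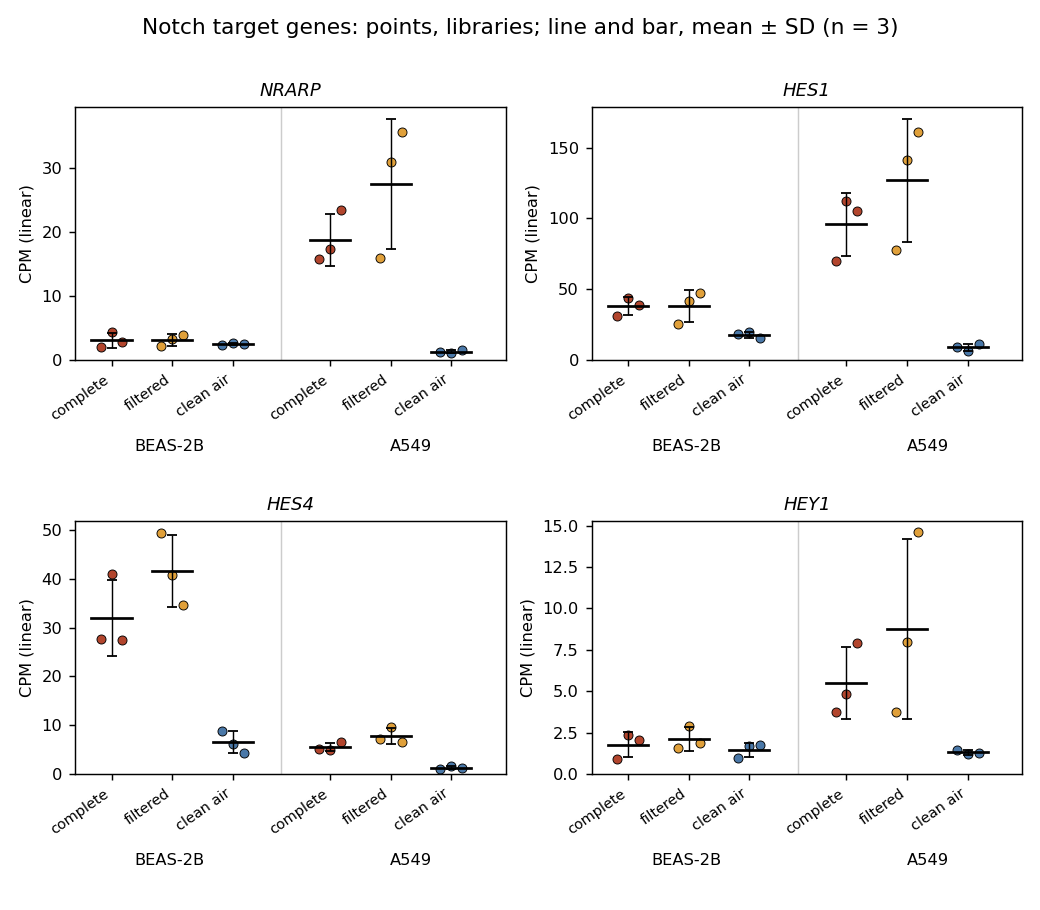
CPM of the 4 Notch target genes in each of the 18 libraries (points), with the group mean and SD (n = 3), for complete smoke, filtered smoke and clean air in BEAS-2B and A549. NRARP and HES1 have their highest points in smoke-exposed A549 (35.6 and 161 CPM), while HES4 has its highest in smoke-exposed BEAS-2B (49.4 CPM).

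HES1, HES4 and HEY1 encode basic helix-loop-helix repressors that carry the signal to further genes, and all 3 rose after both smokes in both lines. Over the other 9 members, 3 rose, 3 fell and 3 did not pass in each of the 4 comparisons of smoke with clean air (Benjamini-Hochberg adjusted p under 0.05 over all genes tested, edgeR's quasi-likelihood test). These counts stand against a broad response. In BEAS-2B 41.0% of 16356 tested genes passed in complete smoke, 21.5% higher and 19.5% lower, and 48.6% in filtered smoke, 23.6% higher and 24.9% lower. In A549 32.5% of 15244 passed in complete smoke, 15.6% higher and 16.9% lower, and 46.7% in filtered smoke, 23.1% higher and 23.5% lower. With the sample number as a block, which treats same-numbered A549 libraries as pairs, 54.6% passed in A549 complete smoke. The share of calls that were higher depended on scaling: 52.5% and 48.7% in BEAS-2B with TMM, but 18.3% in both smokes by library size alone, where the median of all genes was -0.75 and -0.74 in place of -0.06 and -0.07. Overlap between libraries is read in CPM throughout, which is scaled by library size alone. In BEAS-2B a fall therefore separates the groups more readily than a rise, and the share of all genes without overlap is not given here. In A549 the share of calls that were higher was 47.9% and 49.6% with TMM, 34.7% and 37.9% by library size alone, and 57.7% and 57.1% with upper-quartile scaling.

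HES1 (ENSG00000114315, chr3:194136145-194138732) had 31.3, 43.9 and 39.0 CPM in complete smoke and 25.2, 41.8 and 46.9 CPM in filtered smoke in BEAS-2B, against 18.1, 19.6 and 15.1 CPM in clean air. A549 had 70.0, 112 and 105 CPM in complete smoke and 77.9, 141 and 161 CPM in filtered smoke, against 9.08, 6.05 and 11.1 CPM in clean air. No exposed library overlapped the clean air libraries of its line. The log2 fold changes were 1.78 ± 0.24 and 1.74 ± 0.24 for complete and filtered smoke in BEAS-2B (SE; adjusted p = 0.00221 and 0.00247) and 3.57 ± 0.33 and 4.00 ± 0.33 in A549 (adjusted p = 0.000822 and 0.000351). Beyond the median shift above, library size alone left 1.12 and 1.11 in BEAS-2B and 3.45 and 3.86 in A549, all of which still passed. These values are CPM of bulk RNA, so more transcripts per cell and a change in the cells that contributed RNA cannot be told apart.

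HES4 (ENSG00000188290, chr1:998962-1000172), a related repressor that mice lack, was higher in CPM in BEAS-2B than in A549 in all 3 atmospheres. It had 27.7, 41.0 and 27.4 CPM in complete smoke and 49.4, 40.8 and 34.7 CPM in filtered smoke in BEAS-2B, against 8.82, 6.22 and 4.35 CPM in clean air. A549 had 5.19, 4.99 and 6.54 CPM in complete smoke and 7.15, 9.58 and 6.57 CPM in filtered smoke, against 1.07, 1.64 and 1.18 CPM in clean air. Smoke and clean air did not overlap in either line. Its log2 fold changes were 2.95 ± 0.40 and 3.33 ± 0.41 in BEAS-2B (adjusted p = 0.00225 and 0.00217) and 2.21 ± 0.25 and 2.73 ± 0.25 in A549 (adjusted p = 0.00101 and 0.000414), in the order complete and filtered. Offsets for GC content and length lowered them to 2.11, 2.18, 1.36 and 1.47, and all 4 still passed; HES4 transcripts have 73.9% GC and 1118 bases.

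HEY1 (ENSG00000164683, chromosome 8) was the lowest of the targets per kilobase of exon in exposed cells. BEAS-2B had 0.909, 2.34 and 2.07 CPM in complete smoke and 1.59, 2.91 and 1.84 CPM in filtered smoke, against 0.966, 1.68 and 1.72 CPM in clean air, so the groups overlapped. A549 had 3.74, 4.81 and 7.92 CPM in complete smoke and 3.74, 7.95 and 14.6 CPM in filtered smoke, against 1.45, 1.19 and 1.25 CPM in clean air, without overlap. The A549 log2 fold changes were 2.20 ± 0.46 and 2.89 ± 0.46 (adjusted p = 0.00939 and 0.00205). Those in BEAS-2B were 0.95 ± 0.34 and 1.24 ± 0.34 (adjusted p = 0.0489 and 0.0176), and by library size alone 0.28 and 0.54 (adjusted p = 0.586 and 0.279). The complete smoke call in BEAS-2B was also lost with the GC and length offsets (0.76, adjusted p = 0.0897), with limma-voom, no low-count filter, only the libraries compared in the fit or all 18 in it (0.88 to 0.94, adjusted p between 0.0652 and 0.0742), without clean air 1 and complete 3 together (0.84, adjusted p = 0.114), and on leaving out any BEAS-2B library other than complete 1 (0.69 to 1.02, adjusted p between 0.0505 and 0.17). The filtered smoke call was lost without filtered 2 (0.97, adjusted p = 0.0681), clean air 2 (1.30, adjusted p = 0.0526) or clean air 3 (1.30, adjusted p = 0.0533).

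**Figure D2:**
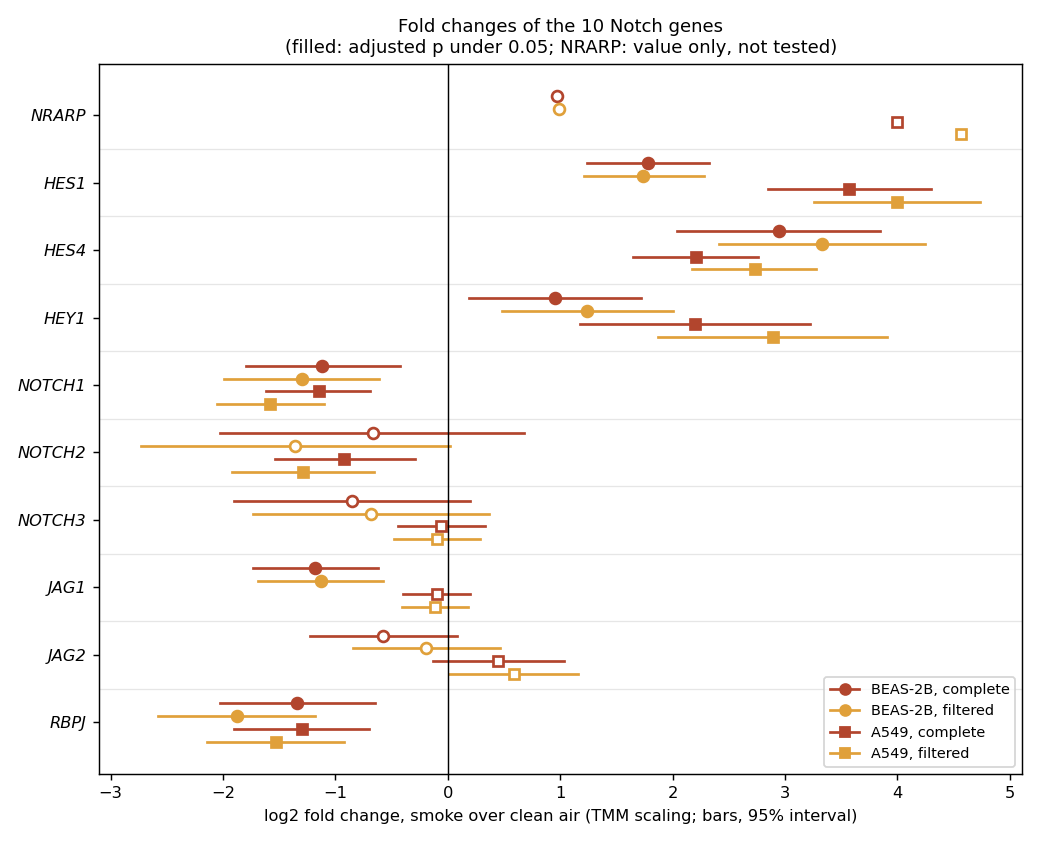
Log2 fold change of each Notch gene, smoke over clean air, with its 95% interval, for complete and filtered smoke in BEAS-2B (circles) and A549 (squares); filled symbols passed at an adjusted p under 0.05, and NRARP is given as a value only. HES1, HES4 and HEY1 lie right of 0 in all 4 comparisons, and NOTCH1 and RBPJ lie left of it at -1.88 to -1.12.

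NOTCH1 (ENSG00000148400, chr9:136494433-136545786), a receptor, fell after both smokes in both lines. BEAS-2B had 4.18, 5.72 and 12.2 CPM in complete smoke and 5.01, 6.73 and 7.08 CPM in filtered smoke, against 15.2, 27.5 and 32.8 CPM in clean air. A549 had 23.9, 21.3 and 34.8 CPM in complete smoke and 15.4, 18.8 and 24.1 CPM in filtered smoke, against 67.7, 72.4 and 52.7 CPM in clean air. All exposed libraries lay below the clean air libraries of their line. The log2 fold changes were -1.12 ± 0.31 and -1.30 ± 0.31 in BEAS-2B (adjusted p = 0.0200 and 0.0109) and -1.15 ± 0.21 and -1.58 ± 0.21 in A549 (adjusted p = 0.00541 and 0.0012). In BEAS-2B complete smoke the call was lost without complete 1, complete 2, clean air 2 or clean air 3 (-1.09 to -0.96, adjusted p between 0.0634 and 0.0776) and with the GC and length offsets (-0.83, adjusted p = 0.0636).

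NOTCH2 (ENSG00000134250, chr1:119911553-120069626) is the receptor in which the 2 BEAS-2B libraries named above stood out. It had 22.0, 32.0 and 117 CPM in complete smoke and 20.7, 34.5 and 46.3 CPM in filtered smoke in BEAS-2B, against 37.0, 185 and 209 CPM in clean air. A549 had 49.2, 39.3 and 69.5 CPM in complete smoke and 28.8, 28.7 and 62.7 CPM in filtered smoke, against 115, 109 and 99.7 CPM in clean air. The groups overlapped in BEAS-2B, through complete 3 and clean air 1, and did not in A549. In A549 the log2 fold changes of -0.92 ± 0.28 and -1.29 ± 0.28 passed (adjusted p = 0.0335 and 0.00672); with the GC and length offsets they were -0.26 (adjusted p = 0.239) and -0.55 (adjusted p = 0.0217). The A549 complete smoke call was also lost without complete 1, complete 2 or any 1 clean air library (-0.97 to -0.76, adjusted p between 0.0723 and 0.126), and both A549 calls were lost with all 18 libraries in 1 fit (-0.93 and -1.30, adjusted p = 0.193 and 0.0604). In BEAS-2B -0.67 ± 0.60 and -1.36 ± 0.61 did not pass (adjusted p = 0.381 and 0.0901). Without clean air 1 and complete 3 together they were -1.92 and -1.74 (adjusted p = 0.000653 and 0.000533), and without complete 3 alone -1.55 and -1.38 (adjusted p = 0.0404 and 0.0348). Clean air 1 was set apart partly by its value in this gene, so p-values without it are a description. Blocking by sample number, which treats same-numbered filtered smoke and clean air libraries of BEAS-2B as pairs, gave -1.17 for filtered smoke (adjusted p = 0.00679). Filtered smoke also passed without clean air 1 alone (-1.77, adjusted p = 0.0215), by library size alone (-2.09, adjusted p = 0.042), with DESeq2 (-1.35, adjusted p = 0.0451) and with all 18 libraries in 1 fit (-1.38, adjusted p = 0.0285). With the GC and length offsets the BEAS-2B values were -0.15 for complete and -0.61 for filtered smoke and did not pass (adjusted p = 0.793 and 0.255). The near-identical copies NOTCH2NLA, NOTCH2NLB, NOTCH2NLC and NOTCH2NLR held 0.0883% to 0.662% as many counts as NOTCH2, and how reads were divided among them is uncertain.

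NOTCH3 (ENSG00000074181, chr19:15159038-15200981), a receptor best known from vascular muscle, passed in none of the 4 comparisons. BEAS-2B had 4.65, 11.0 and 10.9 CPM in complete smoke and 6.09, 10.8 and 12.9 CPM in filtered smoke, against 7.44, 32.6 and 39.4 CPM in clean air, where clean air 1 lay among the exposed libraries. A549 had 33.0, 24.7 and 25.0 CPM in complete smoke and 27.5, 27.0 and 23.7 CPM in filtered smoke, against 30.5, 27.8 and 35.1 CPM in clean air. Log2 fold changes were -0.85 ± 0.47 and -0.68 ± 0.47 in BEAS-2B (adjusted p = 0.166 and 0.243) and -0.06 ± 0.17 and -0.10 ± 0.18 in A549 (adjusted p = 0.822 and 0.671). Without clean air 1 the BEAS-2B values were -1.24 and -1.07 (adjusted p = 0.0145 and 0.0221). These p-values are a description too, since clean air 1 was set apart by such values. The A549 intervals ran from -0.44 to 0.33 and from -0.48 to 0.29.

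**Figure D3:**
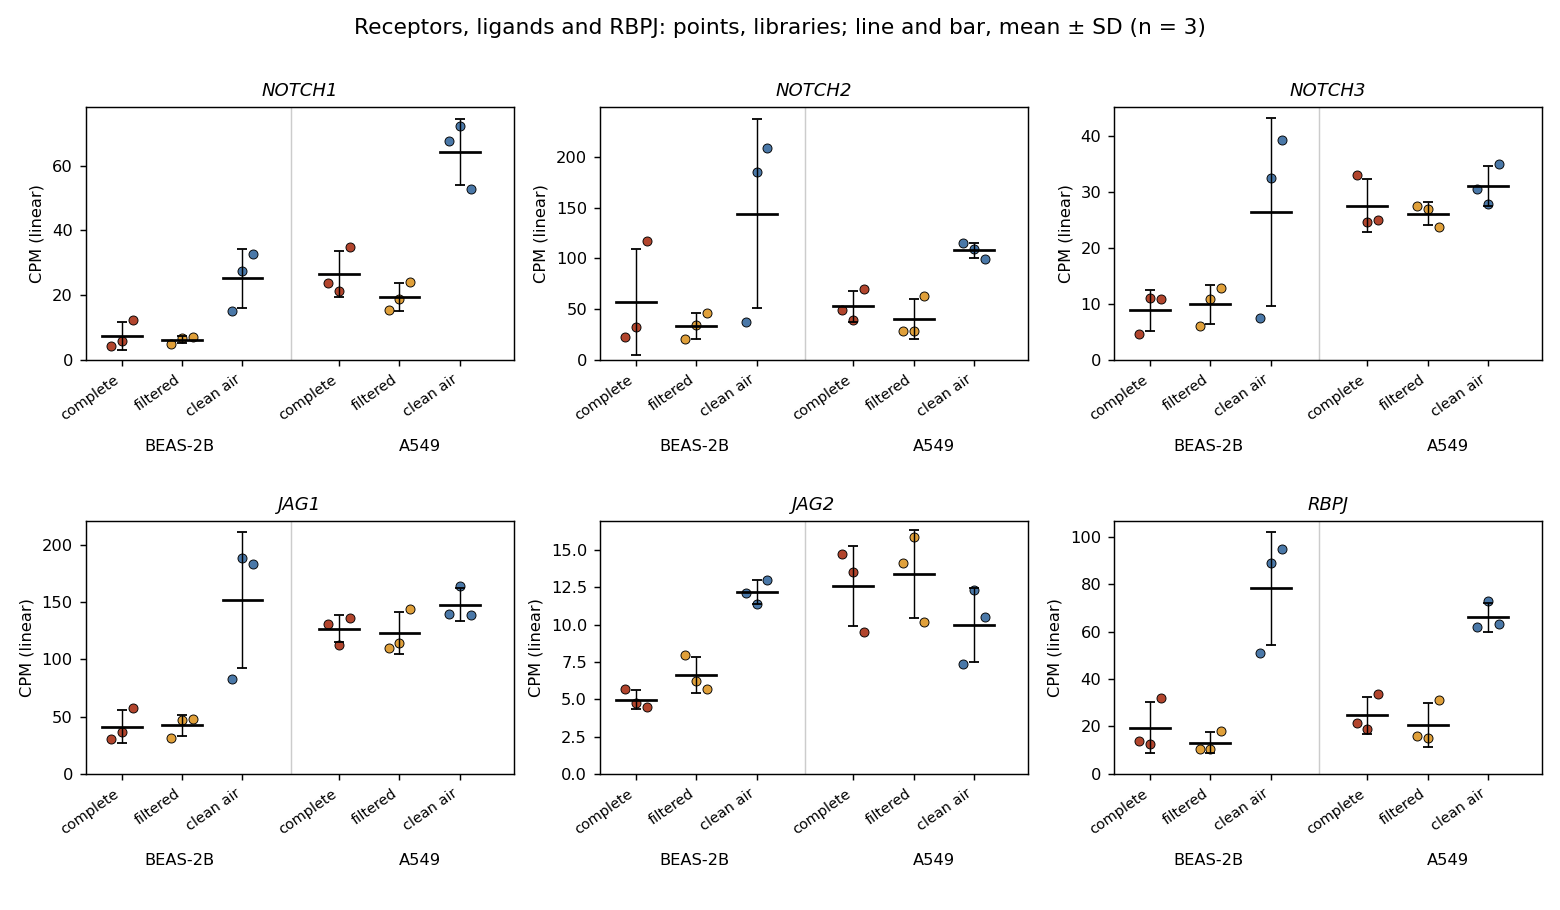
CPM of 3 receptors, 2 ligands and RBPJ in each of the 18 libraries (points), with the group mean and SD (n = 3). RBPJ and NOTCH1 are lower in smoke than in clean air in both lines without overlap in CPM, a scale on which the median of all genes also fell in BEAS-2B. JAG1 is at 30.5 to 57.3 CPM in exposed BEAS-2B and 110 to 144 CPM in exposed A549. The BEAS-2B clean air points of NOTCH2 and NOTCH3 are split, at 37.0 against 185 and 209 CPM for NOTCH2.

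JAG1 (ENSG00000101384, chr20:10637684-10673999), a transmembrane ligand that activates Notch on adjacent cells, fell in BEAS-2B. It had 30.5, 36.3 and 57.3 CPM in complete smoke and 31.8, 46.9 and 48.4 CPM in filtered smoke in BEAS-2B, against 83.2, 189 and 183 CPM in clean air. A549 had 131, 113 and 136 CPM in complete smoke and 110, 114 and 144 CPM in filtered smoke, against 140, 164 and 139 CPM in clean air. The BEAS-2B groups did not overlap, while in A549 filtered smoke and clean air did. The BEAS-2B log2 fold changes were -1.18 ± 0.25 and -1.13 ± 0.25 (adjusted p = 0.00789 and 0.00828). In A549 they were -0.10 ± 0.13 and -0.11 ± 0.13 (adjusted p = 0.576 and 0.501), with intervals of -0.40 to 0.20 and -0.41 to 0.18. The A549 direction turned with the GC and length offsets, to 0.30 and 0.36 (adjusted p = 0.0633 and 0.0272), and with the block added the adjusted p was 0.0174 and 0.00596.

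JAG2 (ENSG00000184916, chr14:105140981-105168824), the second Jagged ligand here, did not pass in any of the 4. BEAS-2B had 5.67, 4.78 and 4.50 CPM in complete smoke and 7.98, 6.20 and 5.67 CPM in filtered smoke, against 12.1, 11.4 and 13.0 CPM in clean air. A549 had 14.7, 13.5 and 9.52 CPM in complete smoke and 14.1, 15.9 and 10.2 CPM in filtered smoke, against 7.38, 12.3 and 10.5 CPM in clean air. The BEAS-2B CPM did not overlap, yet TMM scaling left log2 fold changes of -0.58 ± 0.29 and -0.19 ± 0.29 (adjusted p = 0.134 and 0.605), and library size alone gave -1.29 and -0.88 (adjusted p = 0.0031 and 0.0106). In A549 they were 0.45 ± 0.26 and 0.59 ± 0.26 (adjusted p = 0.193 and 0.0869). The offsets for GC content and length gave -0.53 in BEAS-2B complete smoke (adjusted p = 0.0382). For A549 filtered smoke the block gave 0.56 (adjusted p = 0.0252), leaving out filtered 3 gave 0.78 (adjusted p = 0.0165), and using no low-count filter gave 0.60 (adjusted p = 0.0395).

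RBPJ (ENSG00000168214, chr4:26163455-26435131), the transcription factor on which all canonical Notch signals converge, fell in all 4 comparisons. BEAS-2B had 14.0, 12.5 and 31.8 CPM in complete smoke and 10.7, 10.6 and 18.2 CPM in filtered smoke, against 51.0, 88.8 and 94.7 CPM in clean air. A549 had 21.5, 19.0 and 33.6 CPM in complete smoke and 15.9, 15.0 and 31.3 CPM in filtered smoke, against 61.9, 73.0 and 63.1 CPM in clean air. No exposed library reached the clean air range of its line. The log2 fold changes were -1.34 ± 0.31 and -1.88 ± 0.31 in BEAS-2B (adjusted p = 0.0108 and 0.00392) and -1.30 ± 0.27 and -1.53 ± 0.27 in A549 (adjusted p = 0.00925 and 0.00313). With the GC and length offsets they were -0.67, -0.93, -0.82 and -0.93, and all 4 still passed. RBPJ has the lowest GC content of the 10 genes, 38.0%, and NRARP and HES4 the highest, 67.3% and 73.9%.

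Without clean air 1 and complete 3 together, the BEAS-2B calls of the members held apart from that of HEY1 in complete smoke. The log2 fold changes for complete and filtered smoke were then 2.06 and 1.94 for HES1 and 3.64 and 3.82 for HES4. Those of NOTCH1 were -1.66 and -1.44, those of JAG1 -1.53 and -1.32, and those of RBPJ -1.82 and -1.99. NOTCH3 passed, at -1.28 and -1.05 (adjusted p = 0.0155 and 0.021), HEY1 passed in filtered smoke, at 1.14 (adjusted p = 0.0313), and JAG2 was at -0.25 and -0.03 (adjusted p = 0.475 and 0.923). Since clean air 1 was set apart by values of this kind, these p-values too are a description.

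The members that rose have annotated exons that merge to between 1118 and 3232 bases, and those that fell to between 9253 and 16807 bases; a part of length in these changes was examined only through the offsets. The plot of the 3 scalings sets those values beside each other.

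**Figure D4:**
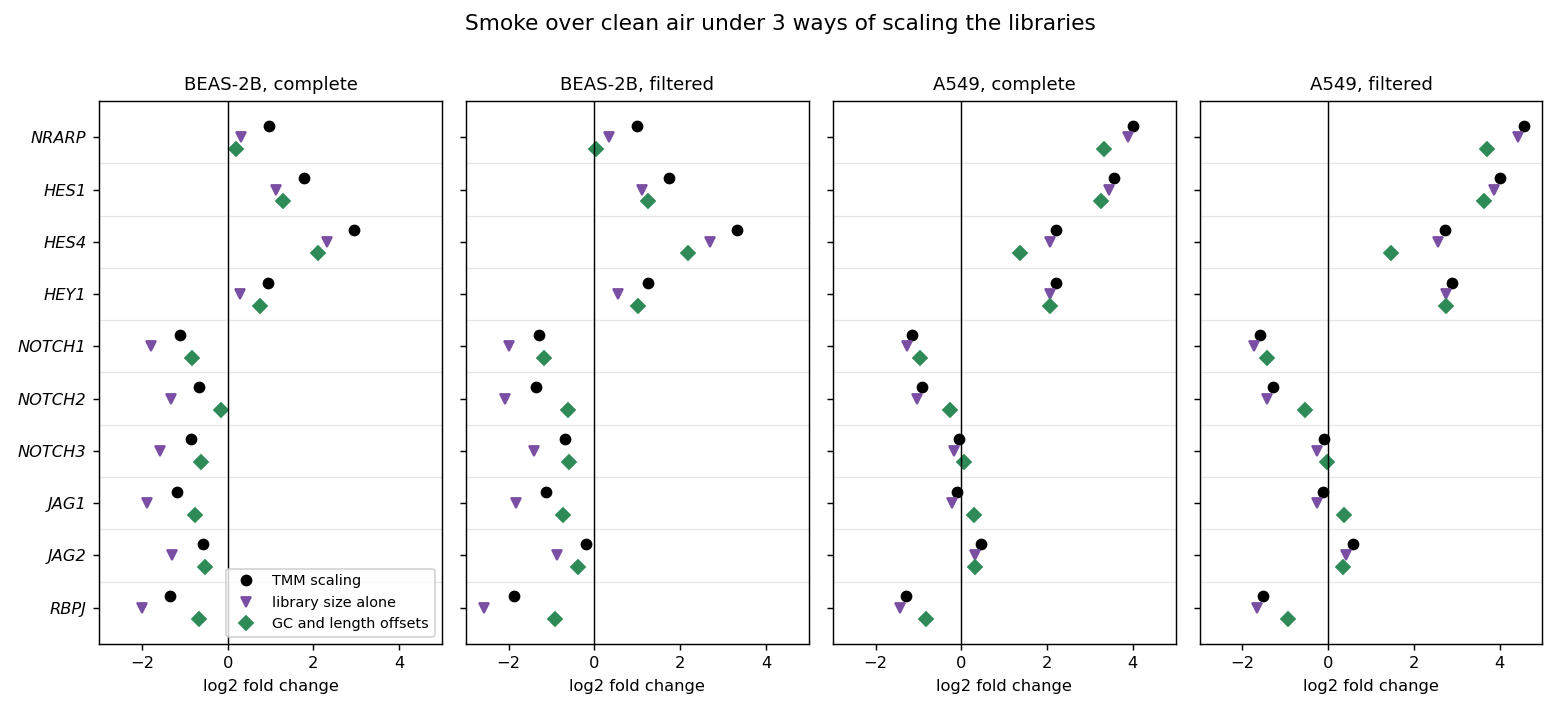
Log2 fold change of the 10 Notch genes, smoke over clean air, in BEAS-2B and A549 under TMM scaling, library size alone, and offsets for GC content and transcript length. In BEAS-2B library size alone moves all genes left (NRARP in filtered smoke is at 0.34, against 0.99 with TMM), and the offsets bring NOTCH2 in A549 complete smoke to -0.26 and turn JAG1 in A549 to 0.30 and 0.36.

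Levels per kilobase of exon allow the members to be set against each other within a group. In BEAS-2B complete smoke HES4 was highest at 28.7 ± 6.95 CPM per kb, followed by HES1 at 18.5 ± 3.06 and JAG1 at 4.45 ± 1.52, and HEY1 was lowest at 0.548 ± 0.235. In A549 complete smoke HES1 was highest at 46.4 ± 10.9 CPM per kb, followed by JAG1 at 13.6 ± 1.30 and NRARP at 10.6 ± 2.30, and HEY1 was again lowest at 1.70 ± 0.672. In clean air JAG1 was highest in both lines, at 16.3 ± 6.42 CPM per kb in BEAS-2B and 15.9 ± 1.54 in A549. HES1 stood at 8.52 ± 1.11 CPM per kb in BEAS-2B clean air and 4.25 ± 1.24 in A549 clean air (SD, n = 3 each).

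Complete and filtered smoke were compared to ask what filtering changed. Of the 10 members, 0 passed between complete and filtered smoke in either line, and 0.0% of all genes tested passed in either line by edgeR (222 genes in BEAS-2B and 236 in A549 at an unadjusted p under 0.05; DESeq2 called 0 and 3, limma-voom 0 and 0). In A549 the lowest unadjusted p among members was that of HES4, 0.0389, with a log2 difference of -0.52 ± 0.22 (adjusted p = 0.998); its complete smoke libraries, at 4.99 to 6.54 CPM, lay below its filtered smoke libraries, at 6.57 to 9.58 CPM. Across the 4 targets the A549 differences ran from -0.69 to -0.42. With the sample number as a block, which treats same-numbered libraries as pairs, they ran from -0.64 to -0.40 (adjusted p = 0.756 for each). With the GC and length offsets the A549 difference of HES4 was -0.11 ± 0.25. Those of NRARP, HES1 and HEY1 were then -0.36 ± 0.40, -0.39 ± 0.30 and -0.68 ± 0.41. In BEAS-2B the widest interval was that of NOTCH2, -0.67 to 2.04, which includes differences of more than 1 log2 unit, so the tests do not show that the smokes act alike.

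The response of HES1 differed between the lines. The BEAS-2B fold change minus the A549 fold change, an interaction term over all 18 libraries, was -1.79 ± 0.39 for complete smoke (adjusted p = 0.0303) and -2.24 ± 0.40 for filtered smoke (adjusted p = 0.0119). HES1 was the single called member of 9 in each, with 0 called higher. Of 17703 genes tested, 1.74% differed between lines in the complete smoke response, 0.565% higher and 1.17% lower in BEAS-2B, and 0.825% in the filtered smoke response, 0.311% higher and 0.514% lower. The HES1 call for complete smoke was lost without A549 complete 2, complete 3, clean air 1 or clean air 2, or without BEAS-2B complete 1 or clean air 2 (-1.85 to -1.63, adjusted p between 0.0552 and 0.0801). The filtered smoke call passed with every library left out in turn.

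JAG1 differed by -1.11 ± 0.29 for complete and -1.02 ± 0.29 for filtered smoke and did not pass (adjusted p = 0.0681 and 0.112). It passed with DESeq2, at -1.09 and -1.03 (adjusted p = 0.00805 and 0.0161), with the GC and length offsets, at -1.07 and -1.06 (adjusted p = 0.0101 and 0.0133), and without BEAS-2B clean air 1, at -1.35 and -1.27 (adjusted p = 0.0098 and 0.015); without BEAS-2B complete 3 the complete smoke value was -1.22 (adjusted p = 0.0409). By library size alone both JAG1, at -1.66 and -1.58 (adjusted p = 0.0203 and 0.0356), and JAG2, at -1.61 and -1.30 (adjusted p = 0.0103 and 0.0373), passed. HEY1 differed by -1.26 ± 0.60 and -1.65 ± 0.59 (adjusted p = 0.286 and 0.214), and the filtered smoke value passed with no low-count filter (-1.66, adjusted p = 0.0423). The block by sample number treats same-numbered filtered smoke and clean air libraries as pairs in both lines. With it the filtered smoke differences of JAG1 and HEY1 were -0.98 and -1.54 (adjusted p = 0.00681 and 0.0175), and 15.5% of all genes passed. HES4 differed the other way, by 0.76 ± 0.48 and 0.64 ± 0.48, without passing (adjusted p = 0.425 and 0.565). Without BEAS-2B clean air 1 and complete 3 together it passed for complete smoke, at 1.39 ± 0.41 (adjusted p = 0.0286), and was 1.05 ± 0.40 for filtered smoke (adjusted p = 0.107). The same omission gave -1.28 for NOTCH3 (adjusted p = 0.0277) and -1.47 for JAG1 (adjusted p = 0.00319) in complete smoke, and -1.02 and -1.27 in filtered smoke (adjusted p = 0.0837 and 0.00584). Clean air 1 was set apart by its values in such genes, so the p-values without it are a description and not a test. Intervals for the other members all included 0 apart from JAG2 in complete smoke, -1.89 to -0.16 (adjusted p = 0.213).

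In clean air the lines already differed in 3 of the 9: HES1 and HES4 were higher in BEAS-2B, by 1.15 ± 0.28 and 2.47 ± 0.36 on the log2 scale (adjusted p = 0.00252 and 1.92e-05), and NOTCH1 was lower, with a log2 difference of -1.26 ± 0.27 (adjusted p = 0.000691). Between the lines 55.4% of all genes passed in clean air, 27.3% higher and 28.0% lower in BEAS-2B, so the members' share of 33.3% was below that of all genes. Without BEAS-2B clean air 1 and complete 3, NOTCH2 and JAG1 also passed, at 0.91 and 0.38 (adjusted p = 0.0136 and 0.0462). Clean air 1 had the lowest BEAS-2B clean air value of both genes, so these p-values are a description and not a test. NRARP, whose difference between lines chose it, had a log2 difference of 1.07.

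The rest of the pathway was read from a list of 63 further Notch genes in 9 roles, of which 58 were tested in BEAS-2B and 55 in A549. In BEAS-2B 4 rose and 15 fell in complete smoke and 7 rose and 22 fell in filtered smoke, 32.8% of those tested in complete smoke, against 41.0% of all genes, and 29 of 58 in filtered smoke, against 48.6% of all genes. In A549 8 rose and 17 fell in complete smoke and 11 rose and 22 fell in filtered smoke, a share of 45.5% and 60.0%, against 32.5% and 46.7% of all genes. The median log2 fold changes were -0.45 and -0.41 in BEAS-2B and -0.37 and -0.43 in A549, against -0.06, -0.07, 0.02 and 0.01 over all genes tested. Between the lines 0 of the 58 passed in either response (9 and 7 at an unadjusted p under 0.05). Scaled by library size alone, the genes of this list that the naming rule gave kept their direction and, apart from HES7 in BEAS-2B filtered smoke, their calls.

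Among ligands DLL3, which in mice acts inside the cell to restrain Notch, rose in all 4: by 1.96 and 2.25 in BEAS-2B and 1.13 and 1.65 in A549 (log2, complete and filtered; adjusted p = 0.00583, 0.00403, 0.0355 and 0.00594), and with the GC and length offsets it was at 0.52 in A549 complete smoke (adjusted p = 0.0987). DLK2, a non-canonical ligand, rose in A549 by 1.64 and 1.71, with 0.92 and 0.94 when strand was ignored (adjusted p = 0.0925 and 0.0727), and stood at 0.82 and 0.96 in BEAS-2B without passing. Of the other HES and HEY factors HES6, an antagonist of HES1, rose in all 4, by 1.57 and 1.78 in BEAS-2B and 2.06 and 2.60 in A549. HES7, the oscillating repressor of the segmentation clock, rose by 1.35 in BEAS-2B filtered smoke and by 2.33 and 3.13 in A549, with 1.28 in BEAS-2B complete smoke (adjusted p = 0.0537). HES7 stayed low, at no more than 2.95 CPM in any library, and its BEAS-2B call was lost by library size alone (0.70, adjusted p = 0.245) and with the offsets (0.51, adjusted p = 0.409). In A549 clean air HES7 had 3, 10 and 3 reads, so its A549 fold changes rest on few reads.

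Of the 8 coactivators that complete the RBPJ complex or act with it, 1 fell in BEAS-2B complete smoke and 4 in each of the other 3 comparisons, while 0 rose in BEAS-2B and 1 in each A549 comparison. Of all genes, 19.5% and 24.9% fell in BEAS-2B and 16.9% and 23.5% in A549. The acetyltransferase CREBBP fell, with log2 fold changes of -1.66 and -2.18 in BEAS-2B and -1.65 and -1.86 in A549. The Mastermind genes MAML2 and MAML3 fell in A549, at -1.93 and -2.00 for MAML2 and at -1.83 and -1.68 for MAML3; in BEAS-2B MAML3 fell in filtered smoke (-2.45, adjusted p = 0.0105), with no more than 0.112 CPM there against 0.258 to 0.709 CPM in clean air, and MAML2 was at -0.34 and -1.32 without passing. Of 14 corepressors 6 and 7 fell in BEAS-2B and 7 and 8 in A549, against the same shares of all genes, and 0 rose in BEAS-2B, 2 in A549 complete smoke and 3 in A549 filtered smoke. TLE4, a Groucho corepressor that HES proteins recruit, fell, at -1.24 and -1.44 in BEAS-2B and at -0.60 and -0.88 in A549, where the offsets gave -0.22 and -0.42 without passing. CTBP2 fell, at -0.77 in both BEAS-2B comparisons and at -0.85 and -0.75 in A549, but with the GC and length offsets it was -0.13, -0.01, -0.25 and -0.02 and passed in none.

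Of 9 genes for receptor cleavage, 2 rose and 2 fell in BEAS-2B complete smoke, 3 and 3 in BEAS-2B filtered smoke, 0 and 1 in A549 complete smoke and 2 and 4 in A549 filtered smoke; of all genes 41.0%, 48.6%, 32.5% and 46.7% passed in either direction. ADAM10, the protease of the first cut, fell in filtered smoke, at -1.32 in BEAS-2B and -0.84 in A549, and the offsets gave -0.11 and 0.06. PSEN2 fell in A549, at -1.24 and -1.14, with no more than 2.08 CPM in any A549 library. Of the genes that modify receptors and ligands, 9 tested in BEAS-2B and 8 in A549, 3 fell in each BEAS-2B comparison and 2 in each A549 comparison. Another rose in BEAS-2B filtered smoke and in both A549 comparisons. LFNG, a Fringe glycosyltransferase that tunes which ligand a receptor answers to, fell, at -1.63 and -1.39 in BEAS-2B and at -1.05 and -0.88 in A549. Its relative MFNG fell in BEAS-2B, at -1.83 and -1.76, and was at -0.15 and -0.43 in A549 without passing. NEURL1B, a ubiquitin ligase for Notch ligands, fell, at -1.39 and -1.40 in BEAS-2B and at -1.37 and -1.26 in A549. The ubiquitin ligases ITCH, NEDD4 and DTX4, which act on receptor turnover, fell in all 4 comparisons, with log2 fold changes between -1.74 and -0.73; with the offsets ITCH did not pass in BEAS-2B complete smoke (-0.53, adjusted p = 0.0697) and NEDD4 did not pass in A549 (-0.25 and -0.27).

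The genes of these 4 roles that rose lie outside the naming rule and were chosen after their values were seen. APH1A and PSENEN, subunits of gamma-secretase, rose by 0.77 and 1.20 in BEAS-2B complete smoke, by 0.89 and 1.18 in BEAS-2B filtered smoke and by 0.61 and 0.85 in A549 filtered smoke. A further subunit, NCSTN, rose by 0.65 in BEAS-2B filtered smoke. By library size alone none of these BEAS-2B calls passed: APH1A was at 0.06 and 0.20, PSENEN at 0.56 and 0.57, and NCSTN turned to -0.04 (adjusted p between 0.159 and 0.886). RFNG, the third Fringe gene, rose by 1.20 in BEAS-2B filtered smoke, which library size alone did not call (0.54, adjusted p = 0.137), and by 1.32 in A549 filtered smoke, and passed in A549 complete smoke too. In A549 the acetyltransferase KAT2A rose by 0.59 and 0.66, the Groucho gene TLE2 by 0.98 and 1.14, the deacetylase HDAC2 by 0.36 and 0.37 and, in filtered smoke, HDAC1 by 0.40. Of these 17 calls, 10 were lost by library size alone, 7 with the GC and length offsets and 15 on leaving out at least 1 library.

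Some of the calls under the naming rule were also lost when 1 library was left out. In BEAS-2B complete smoke this held for CREBBP (-1.53 to -1.37) and HES6 (1.29 to 1.52) without complete 1, complete 2, clean air 2 or clean air 3, and for NEDD4 (-1.26 to -1.05) also without filtered 2 or filtered 3. In BEAS-2B filtered smoke it held for ADAM10 (-1.30 to -1.15), NEDD4 (-1.58 to -1.34) and HES7 (0.99 to 1.47) without filtered 1, filtered 2, clean air 2 or clean air 3. In A549 complete smoke it held for DLL3 (0.86 to 1.14) and DLK2 (1.38 to 1.81) without complete 1, complete 2 or any clean air library, for PSEN2 (-1.22 to -1.04) and TLE4 (-0.64 to -0.52) without complete 1, complete 2, clean air 2 or clean air 3, and for NEDD4 (-0.70 to -0.65) without complete 1, complete 2, clean air 1 or clean air 2. In A549 filtered smoke it held for ADAM10 (-0.80 and -0.70) and DLK2 (1.42 to 1.59) without filtered 1, filtered 2 or clean air 3, and for PSEN2 (-1.09 to -0.98) without filtered 1, filtered 2 or clean air 2.

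**Figure D5:**
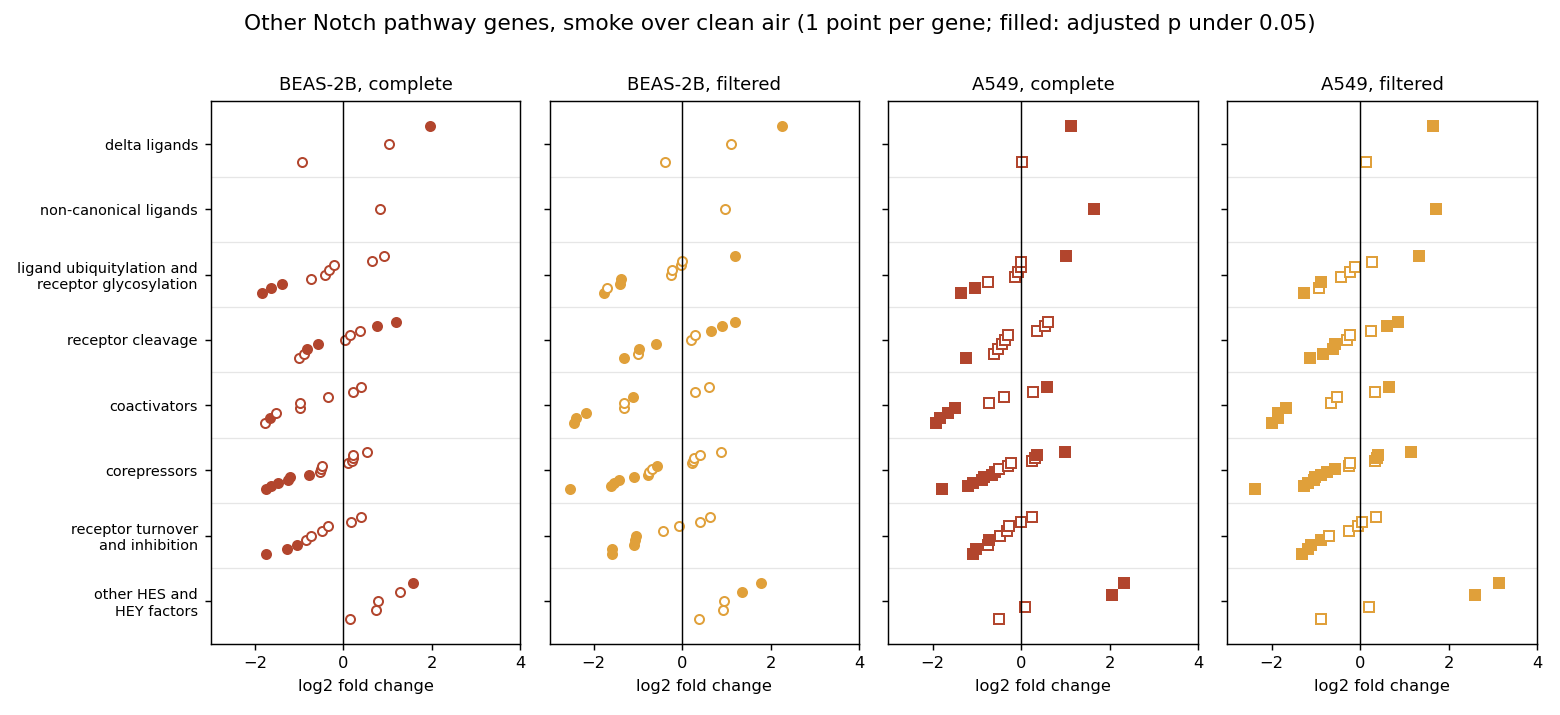
Log2 fold change, smoke over clean air, of the tested genes of the wider Notch list by role, in BEAS-2B and A549 (1 point per gene, filled where the adjusted p was under 0.05). Coactivators, corepressors and turnover genes have most filled points left of 0, and the filled points among ligands and other HES and HEY factors (DLL3, HES6 and HES7) are right of it.

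The genes whose pattern was most like that of NRARP were sought by the root-mean-square distance between 4 log2 fold changes, complete and filtered smoke in both lines, among 9974 protein-coding genes with a mean of at least 5 CPM. The nearest 5 were FOSB (distance 0.23), an AP-1 subunit, HES1 (0.66), ANKRD37 (0.70), an ankyrin-repeat gene, HBEGF (1.03), a ligand of the EGF receptor, and ADAMTS1 (1.11), a secreted metalloprotease. FOSB had log2 fold changes of 0.86 and 1.05 in BEAS-2B and 4.36 and 4.31 in A549. In BEAS-2B clean air FOSB stood at 1.45, 22.8 and 1.96 CPM, so 1 library set its mean there. Of the 5, 4 were also nearest when all 18 libraries were fitted together. In that fit RGS4 was second, at a distance of 0.28, and ADAMTS1 was not among the 5. ADAMTS1 had 6, 5 and 5 reads in A549 clean air, so its A549 fold changes rest on few reads. Its group means were 0.318 to 3.12 CPM in A549 and 41.3 to 67.3 CPM in BEAS-2B, so it met the 5 CPM limit through BEAS-2B. The 2 comparisons of a line share their clean air libraries, and the distance is a description.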

How the data were processed

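Stranded mRNA counts per gene were deposited by the authors for 18 libraries. Alignment used STAR 2.7.10b and the GRCh38 build, per the submitters' processing notes; the annotation release is not given in the sources used here. The deposited counts are whole reads in 3 columns, and the column with 11.7 to 17.1 times as many gene counts as the opposite strand was used. The 4 summary lines, which name no gene and held 18.9% to 45.6% of reads, were left out. Depth was 14.4 M to 55.0 M gene counts, which limits precision for genes near 1 CPM. No library pair was identical.

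CPM values are counts scaled to 1e6 gene counts per library. Fold changes came from edgeR 4.0.16 (R 4.3.3): TMM scaling, filterByExpr, robust quasi-likelihood F tests, and Benjamini-Hochberg adjustment over all genes tested, with a threshold of 0.05. Each line was fitted with its 9 libraries, and differences between lines with all 18. All 10 members passed the filter in every fit. The fits were tested on simulated data. Annotation came from GENCODE 29 and promoters from RefSeq (GRCh38.p14), of which 9 of the 10 members had an entry.

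The members and gene lists were chosen with earlier results of these data known. Named genes were the members, up to 3 called genes per role of the wider list by lowest adjusted p, and the 5 genes most like NRARP; some genes that this rule names are not reported here. The sample numbers of the labels were treated as pairs where every pair of same-numbered libraries correlated above 0.1 in its deviations from the group means: 0.27 to 0.92 in A549, 0.32 to 0.77 for filtered smoke with clean air and 0.49 to 0.90 for complete with filtered smoke in BEAS-2B. For complete smoke with clean air in BEAS-2B the 3 correlations were 0.85, -0.30 and 0.86, and these were not treated as pairs. Some libraries of different number also correlated above 0.1, such as BEAS-2B filtered 3 with clean air 2 (0.66) and A549 complete 2 with filtered 1 (0.58). Others were negative, such as BEAS-2B complete 1 with filtered 3 (-0.89). The check therefore does not establish that the numbers mark pairs, and it used the same data as the block tests.

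Alternatives were DESeq2 size factors, upper-quartile scaling, library size alone, other low-count filters, DESeq2 1.42.0, limma-voom 3.58.1, the sample number as a replicate block, offsets for GC content and length (mgcv 1.9.3), counts ignoring strand, other sets of libraries, and leaving out each library.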

Additional observations from a re-analysis of the deposited data

Results flagged for a closer look

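HES1 answered differently in the 2 lines. Its log2 fold change in BEAS-2B minus that in A549 was -1.79 for complete smoke and -2.24 for filtered smoke, by an interaction term in edgeR's quasi-likelihood test over all 18 libraries (adjusted p = 0.0303 and 0.0119). Exposed libraries lay above clean air in 6 of 6 cases in each line, so the lines differed in the size of the change and not in its direction. The call for complete smoke was lost without each of 6 libraries in turn, at -1.85 to -1.63. The 2 comparisons share their clean air libraries and are not independent of each other.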

How the results depend on the processing

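Over the comparisons of smoke with clean air, the number of the 9 members called, 6 in each, was 4 to 8 and 5 to 9 in BEAS-2B and 5 to 6 and 5 to 7 in A549 for complete and filtered smoke over all alternatives. Over all 9 comparisons, 2062 values of single members kept their direction and side of the threshold, 61 newly passed, 39 no longer passed, 75 changed sign, and 13 values of NRARP moved. The number called for a line difference, 1 for each smoke, became 3 and 3 by library size alone, 2 and 2 with DESeq2, 4 and 3 with the replicate block, 2 and 2 with the GC and length offsets, 4 and 4 with block and offsets together, and 4 and 2 without BEAS-2B clean air 1 and complete 3; it was 2 for filtered smoke with no low-count filter, and 0 to 2 and 1 to 2 with 1 library left out. In clean air 3 members called became 5 with the offsets, 7 with block and offsets, and 5 without those libraries.

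Against clean air, signs turned for NOTCH3 in A549 complete smoke (upper-quartile scaling 0.01, offsets 0.06, block and offsets 0.07, with 1 library left out -0.20 to 0.04) and filtered smoke (-0.19 to 0.00), JAG1 in A549 complete (0.30 with offsets, with or without the block) and filtered smoke (0.36 likewise), ADAM10 in A549 filtered smoke (0.06, and 0.07 with the block), NRARP in BEAS-2B filtered smoke (-0.01 with block and offsets) and NCSTN there (-0.04 by library size alone). Between complete and filtered smoke, none of which passed, signs turned in A549 for NOTCH3 (-0.11 to 0.11), JAG1 (-0.00 with upper-quartile scaling, -0.06 with offsets with or without the block, -0.03 to 0.10), JAG2 (-0.33 to 0.04) and RBPJ (-0.04 to 0.59), and in BEAS-2B for NRARP (0.15 with offsets, 0.18 with the block too, 0.11 without clean air 1 and complete 3, -0.37 to 0.13), HES1 (-0.12 to 0.14), NOTCH1 (-0.22 without those libraries, -0.21 to 0.36), NOTCH2 (-0.18 likewise, -0.17 to 0.98), NOTCH3 (-0.38 to 0.06) and JAG1 (-0.19 to 0.03); the values with no setting named are those with 1 library left out. The line difference turned for complete smoke in NOTCH1 (-0.51 by library size alone, -0.03 with no low-count filter, -0.01 with a stricter one, -0.01 with limma-voom, -0.00 ignoring strand, -0.54 without the BEAS-2B libraries, -0.34 to 0.21), NOTCH2 (-0.30 by library size alone, -1.05 without those libraries, -0.61 to 0.49) and RBPJ (0.15 with offsets, 0.14 with the block too, -0.38 to 0.17), and for filtered smoke in NOTCH1 (-0.28 by library size alone), NOTCH2 (0.25 with limma-voom, 0.21 with the block, 0.05 with block and offsets, -0.52 to 0.33) and RBPJ (0.00 with offsets, -0.57 to 0.01). NOTCH3 in clean air was 0.03 with offsets, 0.25 without the BEAS-2B libraries and -0.49 to 0.25 with 1 left out. The cause was not tested.

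Counts over all genes moved more. A549 complete smoke gave 4951 genes, 8321 with the block, 2574 with all 18 libraries in 1 fit, and 1422 (without complete 2) to 7021 (without filtered 3). BEAS-2B complete smoke gave 6704, 10315 with the block, 10616 without its clean air 1 and complete 3, and 2916 (without clean air 3) to 9026 (without complete 3). Filtered smoke gave 7947 in BEAS-2B, 3652 (without clean air 3) to 9276 (without clean air 1), and 7112 in A549, 4006 (without filtered 2) to 9015 (without filtered 3). The line difference gave 308 for complete and 146 for filtered smoke, 1571 and 822 by library size alone, 797 and 450 with no filter, 900 and 645 with DESeq2, 3541 and 2742 with the block, 902 and 545 with the offsets, 4454 and 3558 with both, and 3774 and 905 without the 2 BEAS-2B libraries; with 1 library left out it was 87 (without A549 clean air 2) to 797 (without BEAS-2B clean air 1) and 47 (without BEAS-2B filtered 2) to 224 (without BEAS-2B complete 3). Between the smokes in A549, 0 genes became 19 with no filter, 3 with DESeq2 and 1 with the block, with or without offsets. In BEAS-2B complete smoke, where the sample numbers were not treated as pairs, the block gave -0.72 for NOTCH3 and -0.61 for JAG2 (adjusted p = 0.0197 and 0.00819). For the line difference in complete smoke it gave -1.23 for HEY1, -1.06 for JAG1 and -1.05 for JAG2 (adjusted p = 0.0439, 0.00292 and 0.0131). Beside these and the values given with the results, the block changed no other call of a member. Genes under about 2 CPM are limited by depth, and this holds in both lines. HEY1 had 30 to 158 reads per library in BEAS-2B. The A549 clean air libraries, the baseline of the A549 rises, had fewer for 3 targets: 19 to 23 for NRARP, 17 to 33 for HES4 and 19 to 24 for HEY1.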

Other observations

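In clean air 13 of the 58 tested genes of the wider Notch list were higher and 20 lower in BEAS-2B than in A549, and the 56.9% called was close to the 55.4% of all genes tested (edgeR's quasi-likelihood test, adjusted p under 0.05). The values of 3 of them follow. MAML3, a Mastermind coactivator, had 0.258, 0.709 and 0.666 CPM in BEAS-2B and 54.0, 54.8 and 71.3 CPM in A549, a log2 difference of -6.67 ± 0.37 (adjusted p = 2.2e-10). The Fringe gene LFNG had 8.60, 9.24 and 8.41 CPM in BEAS-2B and 33.5, 30.1 and 32.6 CPM in A549, a log2 difference of -1.74 ± 0.18 (adjusted p = 3.45e-07). Its relative MFNG had 10.9, 10.7 and 10.6 CPM in BEAS-2B and 4.04, 2.88 and 2.23 CPM in A549, a log2 difference of 1.94 ± 0.33 (adjusted p = 0.000105). Neither Fringe gene overlapped between the lines, and they differed in opposite directions.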
